A study of Mus musculus with 10 samples.

Results

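Peroxisomal fatty acid oxidation was followed in the heart through 8 genes, Abcd3, Acox3, Ehhadh, Hsd17b4, Acaa1a, Scp2, Decr2 and Pex11a. They were looked up by symbol among the 46983 genes of the read count table, and all 8 were found and tested. The libraries came from male wild-type C57BL/6J mice that were 8 weeks old when a control diet with 11.6 kcal% fat (n = 5 mice) or a ketogenic diet with 89.5 kcal% fat (n = 5 mice) began, and cardiac cells were collected after 14 days. Cells were captured on magnetic beads with an antibody to CD31, a surface protein of endothelial cells. Each mouse gave 1 library, made from 10 ng of RNA and sequenced as 50 base single reads, with 10885154 to 12206734 reads on genes in control and 11108020 to 12710861 in ketogenic mice.

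Peroxisomes shorten very long chain and branched chain fatty acids that mitochondria handle poorly, and pass the shortened products on to mitochondria. An ABC transporter brings acyl-CoA into the organelle, an oxidase introduces a double bond and gives hydrogen peroxide, a bifunctional enzyme hydrates and dehydrogenates the product, and a thiolase releases acetyl-CoA or propionyl-CoA. In liver and heart, many genes of this route respond to fatty acids through the nuclear receptor PPARα, which binds DNA together with RXR. A ketogenic diet raises the supply of fatty acids, and the comparison of the diets asks whether the genes of this route differ between them.

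None of the 8 genes passed the test between the diets. With edgeR's quasi-likelihood test and Benjamini-Hochberg adjustment over all 15949 genes tested, 0 of 8 had an adjusted p under 0.05, against a background of 1.34% of tested genes called, with 0.809% higher and 0.527% lower in ketogenic mice. DESeq2 also called 0 of 8, where it called 5.51% of tested genes, and so did limma, where it called 1.12% on log2(RPKM + 1) and 0.69% on log2(RPKM + 0.1). At an unadjusted p under 0.05, 1 of 8 genes remained, Pex11a, and was higher on the ketogenic diet, where the background was 17.8% of tested genes, 8.57% higher and 9.26% lower. The log2 fold change of ketogenic over control was above 0 for 7 of 8 genes with a median of 0.08, whereas it was above 0 for 48.6% of all tested genes with a median of -0.0057. For every gene the normalised counts of the diets overlapped, where all ketogenic mice stood above all control mice for 2.4% of tested genes and below them for 1.94%.

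**Figure D1:**
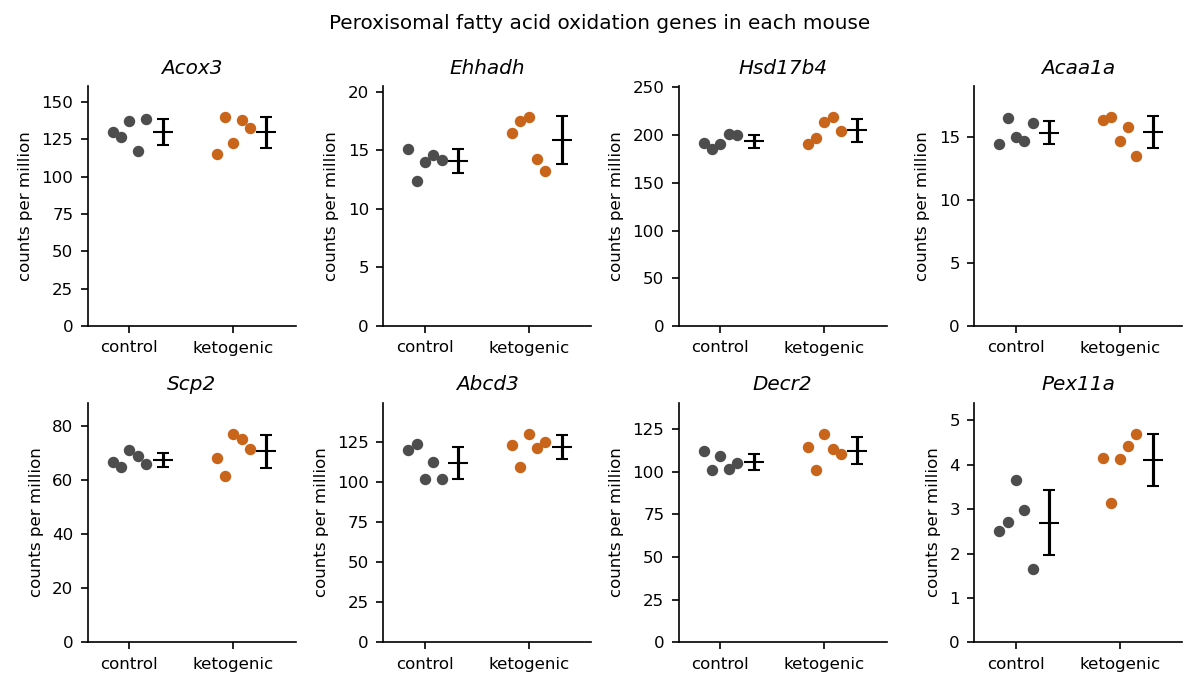
TMM normalised CPM (reads scaled to the same depth in each library) of the 8 genes in each mouse (points, mice 1 to 5 from left to right) on the control and the ketogenic diet, each axis starting at 0, with the mean and SD of 5 mice to the right of the points. The diets overlap for all 8 genes; for Pex11a, 4 of 5 ketogenic mice lie above every control mouse.

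Pex11a, on the minus strand at chr7:79735957-79743131 (GRCm38), encodes a membrane peroxin that elongates peroxisomes before they divide, and it had the largest difference and the fewest reads of the 8 genes. In control mice 1 to 5 it had 27, 33, 41, 33 and 19 reads, or 2.51, 2.71, 3.65, 2.99 and 1.64 CPM (TMM normalised read counts, scaled to the same depth in each library). In ketogenic mice 1 to 5 it had 49, 35, 49, 53 and 60 reads, or 4.16, 3.15, 4.14, 4.43 and 4.70 CPM. Every ketogenic mouse was above the control median and 4 of 5 were above every control mouse, while ketogenic mouse 2 lay below control mouse 3. The means were 2.70 ± 0.731 CPM (SD, n = 5) in control and 4.11 ± 0.588 CPM (SD, n = 5) in ketogenic mice. The log2 fold change was 0.61 (SE 0.210, 95% confidence interval 0.15 to 1.07), with an unadjusted p of 0.0134 and an adjusted p of 0.163 in edgeR, and the difference in CPM had p = 0.0159 in a two-sided exact permutation test. The call was not reached under any of 22 other settings, in which the adjusted p was between 0.105 and 0.467. On log2(RPKM + 1) the fold change was 0.25, since 1 added to a level below 1 compresses the scale.

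The 250 bases upstream of the RefSeq starts of Pex11a (chr7:79743132-79743381, minus strand) and Scp2 (chr4:108118548-108118797, minus strand, GRCm38.p6) are shown because Pex11a had the largest difference and Scp2 was the only gene of the 7 with a RefSeq promoter to hold the hexamer AGGTCA, the element to which PPARα and RXR bind as a direct repeat. Both run 5′ to 3′ on the strand of the gene, and capitals mark the hexamer on either strand.
Pex11a: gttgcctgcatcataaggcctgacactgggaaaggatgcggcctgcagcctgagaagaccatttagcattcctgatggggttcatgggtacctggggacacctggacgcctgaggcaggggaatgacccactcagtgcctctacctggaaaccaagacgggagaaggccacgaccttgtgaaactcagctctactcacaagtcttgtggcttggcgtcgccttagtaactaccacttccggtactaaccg
Scp2: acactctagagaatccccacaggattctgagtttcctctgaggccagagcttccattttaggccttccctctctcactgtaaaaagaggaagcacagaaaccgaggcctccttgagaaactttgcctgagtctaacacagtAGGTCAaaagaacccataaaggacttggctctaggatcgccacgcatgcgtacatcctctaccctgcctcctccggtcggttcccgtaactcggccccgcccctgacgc
The hexamer of Scp2 began 109 bases before this RefSeq start, and the Pex11a stretch held none. This start of Scp2 lies inside the GENCODE gene, which spans chr4:108043839-108144998. The stretch before the outer end of that span was not examined. RefSeq promoters from 250 bases before to 50 after the start were found for 7 of the 8 genes, with 8 starts in all since Abcd3 has a pair of them, and not for Hsd17b4. The hexamer on either strand was in 1 of these 8 promoters and in 16.3% of all 32851 promoters. The direct repeat with 1 base between, AGGTCANAGGTCA on either strand with at most 2 mismatches, was in 0 of 8 and in 3.86% of all, and the closest match in each of the 8 had 4 or 5 mismatches. These are matches of letters in a short window and hold no measurement of binding. G and C made up 53.3% to 76.3% of these promoters. More than 50% G and C was found in 8 of 8 and in 59.5% of all promoters, and 4 of 8 against 33.3% of all also had a ratio of observed to expected CpG above 0.6.

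Abcd3 (chr3:121758774-121815302, minus strand) encodes an ABC transporter that carries branched and long chain acyl-CoA into the peroxisome. In control mice 1 to 5 it had 120, 124, 102, 112 and 102 CPM, and in ketogenic mice 123, 110, 130, 121 and 125 CPM. Control mice 3 and 5 were below every ketogenic mouse, ketogenic mice 3 and 5 were above every control mouse, and the others overlapped. Its log2 fold change was 0.12 (SE 0.0657, 95% confidence interval -0.02 to 0.26) and the adjusted p was 0.363 in edgeR. Within the interval lie a fall of the ratio to 0.985 and a rise to 1.20 times control.

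Acox3 (chr5:35583040-35615352, plus strand) encodes the acyl-CoA oxidase that acts on branched chains such as pristanoyl-CoA, the first and peroxide-forming step. It had 130, 126, 137, 117 and 139 CPM in control mice 1 to 5, and 115, 140, 123, 138 and 132 CPM in ketogenic mice. The lowest and the highest of all 10 values both came from ketogenic mice. The log2 fold change was -0.0022 (SE 0.0632, 95% confidence interval -0.14 to 0.14), so that ratios under 0.908 or over 1.10 times control fell outside the interval. Its exons share 6.08% of their bases with the antisense gene 4931431C16Rik, whose reads an unstranded library cannot tell apart.

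The bifunctional enzymes catalyse the same hydration and dehydrogenation with opposite stereochemistry, Ehhadh for straight chains and dicarboxylic acids and Hsd17b4 for most very long and branched chains. Ehhadh (chr16:21761287-21787807, minus strand) had 15.1, 12.4, 14.0, 14.6 and 14.2 CPM in control mice 1 to 5, and 16.5, 17.5, 17.8, 14.3 and 13.2 CPM in ketogenic mice. Ketogenic mice 1, 2 and 3 stood above all controls and mice 4 and 5 lay among them. The spread was wider on the ketogenic diet, with a coefficient of variation of CPM of 12.7% against 7.36% in control. The log2 fold change of 0.18 (SE 0.107, 95% confidence interval -0.06 to 0.41) had an adjusted p of 0.417 in edgeR. Hsd17b4 (chr18:50128201-50196269, plus strand) had 192, 185, 191, 201 and 200 CPM in control mice and 190, 197, 214, 219 and 204 CPM in ketogenic mice. Ketogenic mice 3, 4 and 5 were above all controls and mice 1 and 2 were not. With the smallest standard error of the 8 genes, its log2 fold change was 0.08 (SE 0.0433, 95% confidence interval -0.01 to 0.18, adjusted p 0.346 in edgeR), which places the ratio between 0.992 and 1.13 times control.

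Thiolases release the shortened acyl-CoA. Acaa1a (chr9:119339676-119350299, plus strand), the straight chain thiolase, had 14.4, 16.5, 15.0, 14.7 and 16.1 CPM in control mice 1 to 5 and 16.3, 16.5, 14.7, 15.8 and 13.5 CPM in ketogenic mice. The values of the diets lay among each other, with a log2 fold change of 0.0029 (SE 0.0892, 95% confidence interval -0.19 to 0.20, adjusted p 0.991 in edgeR). Its paralog Acaa1b had 0 or 1 read in each mouse. Of the words of 50 bases in Acaa1a transcripts, 17.1% also occur in transcripts of other genes and 12.4% in those of Acaa1b, so reads from these stretches cannot be assigned to either gene with certainty. Scp2 (chr4:108043839-108144998, minus strand) encodes, from different starts, a thiolase for branched chains and a lipid transfer protein, and counts per gene sum both. It had 66.4, 64.6, 71.1, 69.0 and 65.9 CPM in control and 68.0, 61.6, 77.0, 75.0 and 71.4 CPM in ketogenic mice. Ketogenic mouse 2 was the lowest of all 10 mice and ketogenic mice 3, 4 and 5 were the highest. The log2 fold change was 0.07 (SE 0.0636, 95% confidence interval -0.07 to 0.21, adjusted p 0.612 in edgeR), and 29.7% of its 50 base words also occur in the pseudogene Scp2-ps2.

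Decr2 (chr17:26081208-26090337, minus strand) encodes the peroxisomal 2,4-dienoyl-CoA reductase, an auxiliary enzyme that lets unsaturated chains enter the cycle. It had 112, 101, 109, 102 and 105 CPM in control mice 1 to 5, and 115, 101, 122, 113 and 110 CPM in ketogenic mice. Ketogenic mice 1, 3 and 4 were above all controls, whereas ketogenic mouse 2 was the lowest of all 10. The log2 fold change was 0.09 (SE 0.0536, 95% confidence interval -0.03 to 0.20, adjusted p 0.428 in edgeR). Ketogenic mouse 2 was the lowest ketogenic mouse for Scp2, Abcd3, Decr2 and Pex11a and the highest for Acox3 and Acaa1a, while ketogenic mouse 3 was the highest for Ehhadh, Scp2, Abcd3 and Decr2. Without ketogenic mouse 2 no gene of the 8 was called, although the number of calls among all genes rose from 213 to 492.

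Levels of different genes were compared per length, as RPKM, which divides reads by gene length and by the depth of the library. Hsd17b4 was the highest at 46.8 ± 2.65 RPKM (SD, n = 10 mice), above 93.2% of tested genes. Decr2 followed at 28.2 ± 1.85 RPKM, then Abcd3 at 10.6 ± 0.923, Scp2 at 10.0 ± 0.708, Acox3 at 8.77 ± 0.635, Ehhadh at 4.94 ± 0.596, Acaa1a at 1.77 ± 0.123 and Pex11a at 0.668 ± 0.193 RPKM. The span from lowest to highest was 70.1 times. Ranges over the 10 mice overlapped between Abcd3 and Scp2 and between Scp2 and Acox3, and no other neighbours overlapped. Of the bifunctional enzymes Hsd17b4 therefore had the higher level in each of 10 mice, and of the thiolase genes Scp2. The level of Scp2 includes transcripts for its lipid transfer protein, so it does not rank the thiolases themselves. The gene lengths behind the RPKM values were 1.01 (Ehhadh) to 1.97 (Scp2) times the merged exonic lengths of GENCODE M21, and with the latter Scp2 (19.8 RPKM) stood before Abcd3 (17.7 RPKM), with overlapping ranges, and the order of the other genes was the same.

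**Figure D2:**
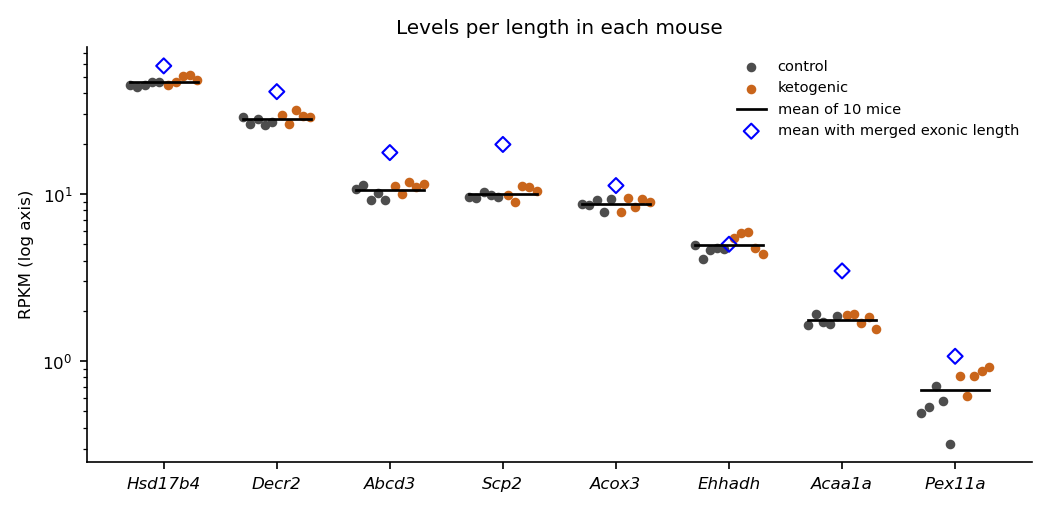
RPKM (log axis) of the 8 genes in each of 5 control and 5 ketogenic mice, ordered by the mean of the 10 mice (line), with the mean computed from merged exonic lengths (open diamond). Hsd17b4 at 46.8 RPKM is the highest and Pex11a at 0.668 RPKM the lowest, and Abcd3 and Scp2 change places with the other length.

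Whether genes with the same biochemical step changed unequally was asked with the log2 ratio of their reads within each mouse, which does not depend on how libraries are scaled. Of 5 pairs tested by exact permutation of the diets (two-sided), with adjustment over the 5, 3 are given here, and 1 of the 3 differed between the diets. It was formed by the dienoyl-CoA reductases, Decr2 in peroxisomes and Decr1 in mitochondria. Decr1 had 56.7, 61.4, 68.8, 74.7 and 71.1 CPM in control mice and 89.5, 82.5, 107, 93.6 and 95.7 CPM in ketogenic mice, without overlap, and rose by a log2 fold change of 0.49 (SE 0.0857, adjusted p 0.0190 in edgeR). The log2 ratio of Decr2 to Decr1 was 0.98, 0.72, 0.66, 0.44 and 0.56 in control mice 1 to 5 and 0.36, 0.29, 0.19, 0.27 and 0.20 in ketogenic mice. All ketogenic mice lay below all control mice. The mean difference was -0.41, or a ratio of 0.751 times control (exact permutation p = 0.00794, the smallest that 5 against 5 mice allow, adjusted p = 0.0198). With the mean z-score of 10 cardiomyocyte markers in each mouse as a covariate, the difference was -0.30 and was no longer called (adjusted permutation p = 0.119).

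For the bifunctional enzymes and the thiolases the ratios of the diets overlapped. Ehhadh to Hsd17b4 differed by 0.09 (exact permutation p = 0.429, adjusted p = 0.536) and Acaa1a to Scp2 by -0.06 (exact permutation p = 0.563, adjusted p = 0.563). In the latter ratio the reads of Scp2 include those for its lipid transfer protein.

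**Figure D3:**
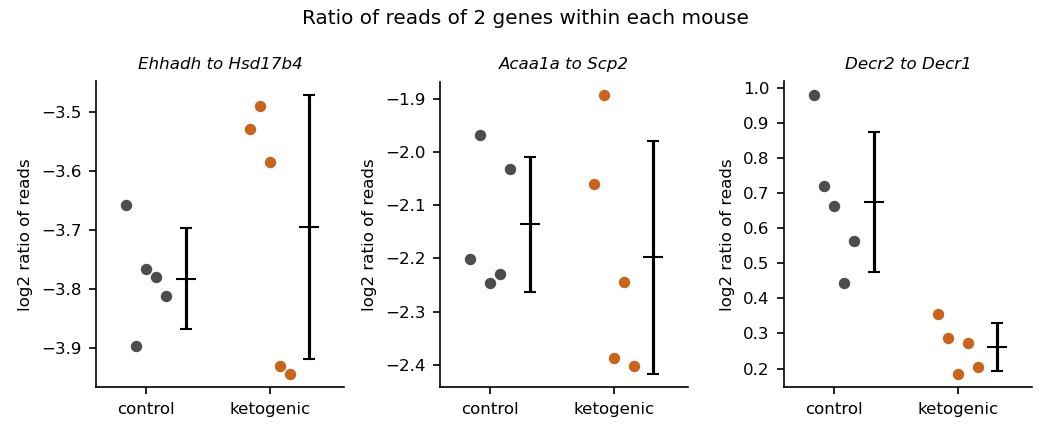
Log2 ratio of the reads of 2 genes within each mouse (points, mice 1 to 5 from left to right) for 3 pairs on the control and the ketogenic diet, with the mean and SD of 5 mice; the axes do not start at 0 and differ between panels. The diets do not overlap for Decr2 to Decr1 and overlap for Ehhadh to Hsd17b4 and Acaa1a to Scp2.

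Among 27 other genes of peroxisomal fatty acid metabolism, 19 had enough reads to be tested. Acot8, a peroxisomal acyl-CoA thioesterase, fell, with a log2 fold change of -0.26 (SE 0.0537, adjusted p 0.0427 in edgeR) and 38.1 to 40.5 CPM in control against 32.2 to 33.9 CPM in ketogenic mice, without overlap. In edgeR no other gene of this list passed, where 1.34% of all tested genes did. DESeq2 called 4, where it called 5.51% of all tested genes. Log2 fold changes were above 0 for 15 of 19, against 48.6% of all tested genes, and the median was 0.11. All ketogenic mice stood above all control mice for 3 of 19 genes and below them for 1, against 2.4% and 1.94% of tested genes. Eci2, a peroxisomal enoyl-CoA isomerase, had a log2 fold change of 0.15 and an adjusted p of 0.0753 in edgeR, and was called by DESeq2 (adjusted p 0.0194). The call of Acot8 was lost when any mouse other than ketogenic mouse 2 was left out, with adjusted p of 0.0612 to 0.0955 in edgeR.

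For Pex11a the closest list was that of the 18 other peroxins and fission factors, all tested. In edgeR 0 of 18 passed and 2 had an unadjusted p under 0.05, where 17.8% of all tested genes did. DESeq2 called 2, Mff and Pex3, where it called 5.51% of all tested genes. Mff, the receptor that recruits the fission GTPase to peroxisomes and mitochondria, had a log2 fold change of 0.25 (adjusted p 0.0935 in edgeR), and without ketogenic mouse 2 it was 0.28 and passed (adjusted p 0.0461). Pex3 and Pex19, which insert peroxisomal membrane proteins, had 0.24 (adjusted p 0.107) and 0.07 (adjusted p 0.283) in edgeR. The median over the list was 0.09, and 15 of 18 were above 0, where 48.6% of all tested genes were.

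Mitochondrial beta-oxidation, the most similar pathway, had 14 genes, all tested. All 14 had log2 fold changes above 0, where 48.6% of all tested genes did, and the median was 0.12. In edgeR 2 of 14 passed, where 1.34% of all tested genes did. Decr1 and Acadl, the long chain acyl-CoA dehydrogenase, rose, the latter by 0.52 (SE 0.107, adjusted p 0.0393 in edgeR) with 49.9 to 67.5 CPM in control and 72.0 to 103 CPM in ketogenic mice. The call of Decr1 was lost without control mouse 2 (adjusted p 0.0611 in edgeR), and that of Acadl without any 1 of 8 mice, each control mouse and ketogenic mice 1, 3 and 5 (adjusted p 0.0576 to 0.0815). Hadha, a subunit of the trifunctional protein, had 0.09 (adjusted p 0.113). Whether the 8 peroxisomal genes and the mitochondrial genes differed as groups was not tested.

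**Figure D4:**
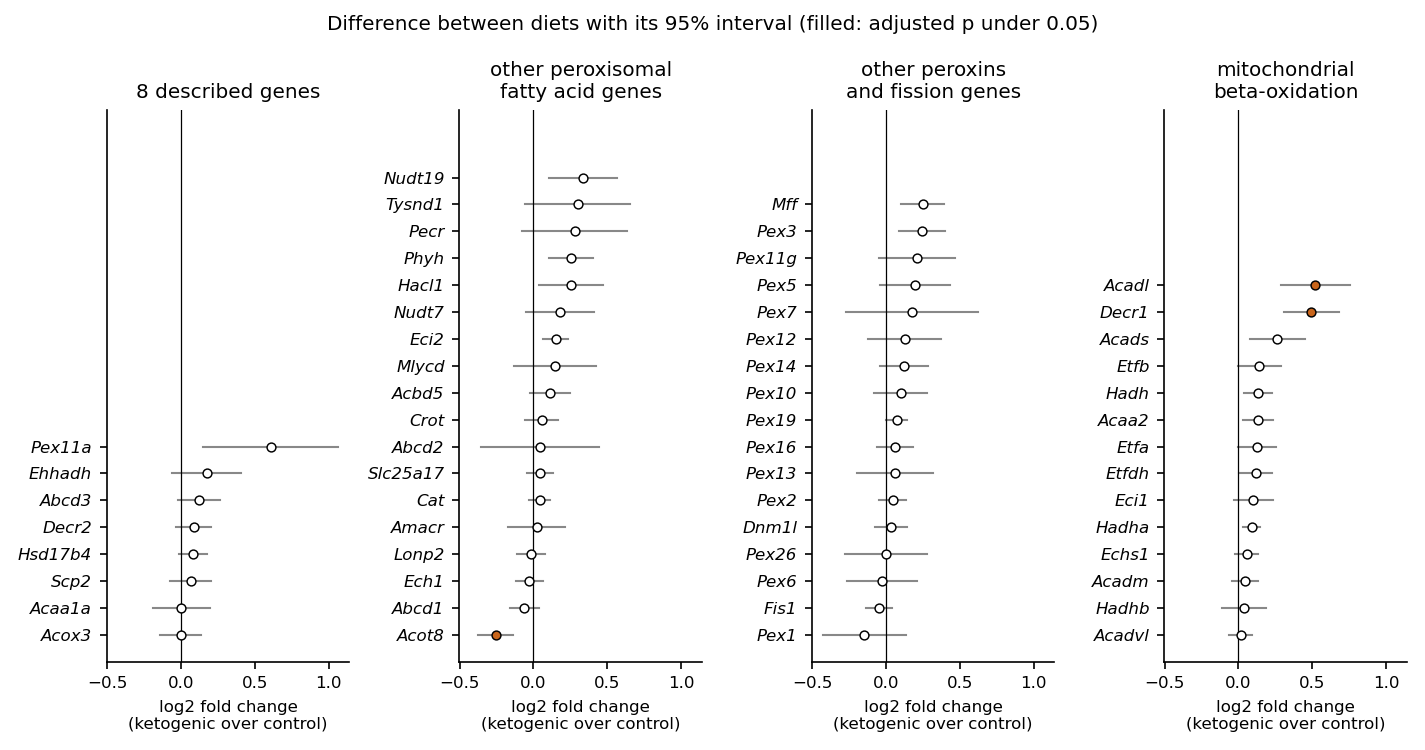
Log2 fold change of ketogenic over control (points) with its 95% confidence interval (lines) for the 8 genes and for the tested genes of 3 related lists other than 2 that are not reported, from edgeR with 5 mice per diet; filled points have an adjusted p under 0.05. None of the 8 genes is filled, Pex11a has the largest value at 0.61, and Acot8, Decr1 and Acadl are the filled points.

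Markers of other cells were followed beside these values. The fraction held endothelial markers, led by Cdh5 and Tek, at a summed 528 to 571 RPKM in control and 512 to 575 RPKM in ketogenic mice. It also held mural cell markers led by Rgs5 and Acta2 (584 to 619 and 563 to 624 RPKM), fibroblast markers led by Dcn and Lum (224 to 255 and 217 to 263 RPKM) and erythroid markers led by Alas2 and Hbb-bt (131 to 152 and 141 to 151 RPKM). Counts appeared limited by the number of start positions in a gene, as described under processing. Reads per mouse were 7356 to 7571 for Cdh5, 7457 to 7691 for Rgs5 and 97 to 98 for Hba-a1. Those of Alas2 varied more, at 1973 to 2648. How far this limit shaped the endothelial, mural and erythroid sums was not tested. These sums therefore do not rank the cell types or show equal amounts on the diets. The 10 cardiomyocyte markers, led by Actc1 and Pln, summed to 179 to 220 RPKM in control and 202 to 272 RPKM in ketogenic mice. None of the 10 was called by edgeR or was at 0 in any mouse. Of the 10, 7 had an unadjusted p under 0.05 in edgeR and 9 had log2 fold changes above 0. Over all tested genes these shares were 17.8% and 48.6%. Their mean z-score was above all controls in 3 of 5 ketogenic mice (exact permutation p = 0.0556). In bulk RNA, more cells of a type and more RNA per cell cannot be told apart.

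With that score as a covariate, the log2 fold change was 0.0057 for Hsd17b4, -0.01 for Scp2, 0.11 for Ehhadh, 0.06 for Decr2, 0.19 for Abcd3, -0.06 for Acox3, 0.04 for Acaa1a and 0.53 for Pex11a, and none was called. Decr1 and Acadl were not called either, at 0.36 (adjusted p 0.169 in edgeR) and 0.59 (adjusted p 0.116), nor was Acot8 at -0.25 (adjusted p 0.204). Calls among all genes then fell from 213 to 42. The 7 macrophage markers, led by C1qb and Cd68, summed to 211 RPKM in control mouse 1 and to 24.0 to 68.7 RPKM in the other mice. Of these, 6 were tested, all with log2 fold changes below 0 and a median of -0.99, 3 had an unadjusted p under 0.05 and 0 were called by edgeR. Without control mouse 1, Pex11a had a log2 fold change of 0.58 (adjusted p 0.262 in edgeR). Lymphocyte markers led by Cd79a and Cd79b summed to 86.1 to 120 RPKM in control and 77.3 to 87.5 RPKM in ketogenic mice, with Cd79a lower. Adipocyte markers summed to at most 0.631 RPKM, and each of the 5, among them Adipoq and Cidec, was at 0 in some mouse.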

How the data were processed

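The authors deposited raw read counts per gene and RPKM values, in which each count is divided by the length of the gene and the depth of the library. Per the labels, SMART-Seq v4 libraries were sequenced in single-read mode, and the submitters' processing notes name bcl2fastq 2.17.1.14, STAR 2.3, HTSeq 0.6.0 and mm10. The annotation release, the counting settings and any removal of duplicate reads are not given in the sources used here. Symbols and positions came from GENCODE M21 on GRCm38, where 37902 of 46983 identifiers matched with their version and 46488 without it.

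Diets were tested against each other in R 4.3.3 with edgeR 4.0.16, using TMM, filterByExpr, the quasi-likelihood F-test and Benjamini-Hochberg adjustment over 15949 genes. SEs were obtained as the ratio of the absolute log2 fold change to the root of the F statistic. DESeq2 1.42.0 and limma 3.58.1 (on log2 RPKM plus 1 or 0.1), other scalings, filters, a replicate block, marker scores as covariates and each mouse left out were alternatives. Ratios of reads had 0.5 added to each count. The code was tested on simulated data. Genes named are the 8 genes, the called genes of each other list with those of smallest p up to 3 in all, the partners of the ratios and up to 2 leading markers a list. The genes and lists were chosen with earlier results of these data known. Certain genes and ratios under this rule were tested but are not reported. Targeting signals in the proteins were not analysed here.

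Counts appeared limited to about 2 reads per start position of a gene. Only 5 genes exceeded that limit, and the 8 genes reached 0.589% (Pex11a) to 30.8% (Hsd17b4) of it. A low share does not show that a gene was free of a limit. Hba-a1 stayed far below 2 reads per start position, yet had 97 to 98 reads in each mouse. Apart from the start position correction, which assumes the limit of 2, how far such limits shaped the 8 genes was not tested. No pair of libraries was identical, and pairs within a diet differed by more than counting noise.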

Additional observations from a re-analysis of the deposited data

Results flagged for a closer look

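A single mouse stood apart from the other 4 of its diet, by Dixon's gap to range ratio above 0.71, in 1 of 42 groups of values checked, where chance gives about 1 in 20, or 2.1. The macrophage marker score, a mean z-score, was highest among ketogenic mice in mouse 4 at 0.64 against -0.46 in the next mouse (gap to range ratio 0.824).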

How the results depend on the processing

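None of the 8 genes was called in any of 176 results under 22 alternatives each. Of these results 22 changed direction, 11 for Acox3, 10 for Acaa1a and 1 for Scp2. Acox3 and Acaa1a had changes near 0 in the main fit, whereas Scp2 was at 0.07. The log2 fold change of Acox3 became 0.0059 with DESeq2 size factors and with DESeq2, 0.0098 with library size alone, 8.93e-04 without a filter, 0.0083 and 0.0091 with limma on log2 RPKM plus 1 and plus 0.1, 0.036 with the macrophage score, and -0.037 to 0.041 with each mouse left out. Acaa1a became -0.011 with upper quartile factors and -0.014 with the macrophage score, -4.27e-04 with at least 10 counts in every mouse, -0.0025 with the start position correction, and -0.024 to 0.052 with each mouse left out. With the cardiomyocyte score Scp2 was at -0.015 and the log2 ratio of Acaa1a to Scp2 at 0.058. The scores of macrophages for all genes and of cardiomyocytes for the ratios, the start position correction and the second gene length were chosen after seeing the data.

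Calls among all genes were 815 with DESeq2, 110 with limma on log2 RPKM plus 0.1, 42 with the cardiomyocyte score, 140 with the macrophage score and 86 (without control mouse 2) to 492 (without ketogenic mouse 2) with each mouse left out. The other peroxisomal fatty acid genes had 4 calls with DESeq2, 0 without a filter and with either score, and 0 to 1 with each mouse left out. The peroxins had 2 with DESeq2 and 0 to 1 with each mouse left out. The mitochondrial genes had 3 with DESeq2 and with the start position correction, 1 with limma at either pseudocount, 0 with the cardiomyocyte score and 0 to 2 with each mouse left out. With that score the log2 ratio of Decr2 to Decr1 was -0.30, no longer past the threshold. The causes were not tested. With merged exonic lengths the mean RPKM was 58.4 for Hsd17b4, 41.0 for Decr2, 17.7 for Abcd3, 19.8 for Scp2, 11.2 for Acox3, 3.47 for Acaa1a and 1.07 for Pex11a.

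Mice of the 2 diets share replicate numbers, but the deviations of same-numbered mice correlated at -0.134 to 0.0936 and no mouse was closest to its own number, so the numbers were not taken as pairs. The authors describe the control mice as littermates of the ketogenic mice. The sample labels used here give no litter, so litter was not modelled. With the replicate block, 113 genes were called in all, 0 of the other peroxisomal fatty acid genes and 1 mitochondrial gene, and the ratio of Decr2 to Decr1 (-0.41) had an adjusted exact permutation p of 0.156, where the smallest unadjusted p is 0.0625. The planned start position correction was not run as written because 5 genes exceeded the limit it assumed, and 21 genes above 95% of it were left out instead. With 19 to 60 reads, Pex11a allows only wide intervals.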
